A study of Mus musculus with 2 samples.

Results

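Immunoglobulin-family and leucine-rich-repeat adhesion genes of neurons encode proteins that sit in the axonal, dendritic or synaptic membrane and bind each other across the gap between cells. Many of the immunoglobulin proteins bind a copy of themselves or a close relative on the neighbouring cell, while the LRRTM proteins are postsynaptic partners of presynaptic neurexins. In the retina such molecules are known for bundling ganglion cell axons, for spacing cells and dendrites of a type apart, and for sorting neurites into the layers where they form synapses. Here 34 of these genes were followed by name in a list of peaks for POU3F1, a POU-domain transcription factor. A peak is a stretch of DNA enriched in the POU3F1 library, and binding at single peaks was not tested otherwise. Of the 34 genes, 22 (64.7%) had at least 1 assigned peak, against 10.2% of 21896 protein-coding genes. Many members are long genes, and shares by gene length are given below. The members were 27 immunoglobulin genes and 7 leucine-rich genes. The authors assigned a peak to 2323 genes in all, among them these 22.

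The data came from CUT&RUN, in which an antibody brings a nuclease to a chromatin protein and the DNA cut around it is sequenced. Retina of wild-type CD1 mice at embryonic day 14 gave 1 library made with a POU3F1 antibody and 1 made with rabbit IgG, the control antibody without a target in mouse cells. The labels give a mixed population of retinal cells, with no sorting, and do not say how many embryos were used. The peak list held 2652 peaks of the POU3F1 library. No peak list or signal of the IgG library was analysed here. Whether the deposited folds were already set against IgG is not stated in the sources used here.

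Peaks were called once, without replicates, so every comparison below is a description and no test between groups of samples could be made. Fold, as deposited by the authors, compares a peak's summit with the background that the peak caller estimated there, and the pileup is the number of fragments at the summit that the deposited fold and p-value imply. A peak list carries no RNA level, so whether a member was expressed was not measured. The authors assigned peaks to genes by position on the chromosome alone, up to 1000 kb from the transcription start site (TSS), and 44 of the members' 57 peaks were assigned to more than 1 gene.

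The adhesion genes carried peaks often, and many of them are long. Of the 34 members, 22 (64.7%, 95% exact binomial interval 46.5 to 80.3%, counting error only) had an assigned peak, against 10.2% of 21896 protein-coding genes. The members were chosen with earlier results of these data known, which the interval does not cover. The median gene body, from the first to the last annotated base, was 294 kb in the members and 17.1 kb in all protein-coding genes. Among members with a body over 200 kb, 19 of 22 had a peak (86.4%), against 446 of 989 genes of that length (45.1%). Among members of up to 200 kb, 3 of 12 had a peak (25%), against 1784 of 20907 genes (8.53%). Length thus went with a higher share in both sets, and the members' share was the higher one on either side of 200 kb. The 3 shorter members with a peak, Lrrn3, Lrrtm1 and Lrrtm3, had none in their own body. Their peaks lay in the bodies of Immp2l, Ctnna2 and Ctnna3. At 50 to 200 kb, 1 of 4 members had a peak, against 17.5% of genes, and at 10 to 50 kb 2 of 7, against 7.47%. The only member under 10 kb had none, against 5.28% of genes. The distance from a locus to its neighbours, which also sets how many peaks it can be assigned, was not examined.

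**Figure D1:**
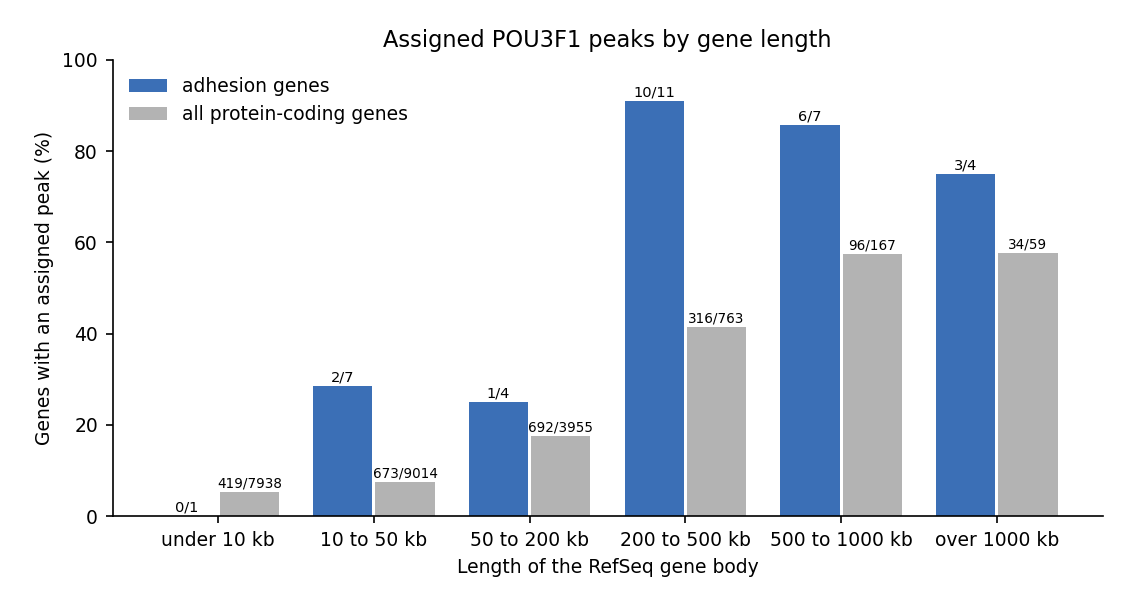
Share of genes with an assigned POU3F1 peak (y axis, percent) by length of the RefSeq gene body (x axis), for the adhesion genes (blue) and all protein-coding genes (grey), with the counts above the bars. From 200 to 500 kb, 10 of 11 adhesion genes had a peak, against 316 of 763 protein-coding genes, while in the shortest class the only adhesion gene had none.

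The 22 members held 60 gene-peak pairs on 57 distinct peaks, since 3 peaks were shared by 2 members. The number of peaks ranged from 1 in 7 members to 9 in Cadm1, and the members with a peak had a mean of 2.73 each, against 1.91 for protein-coding genes with a peak. These means were not matched for length, and the protein-coding genes with a peak had a median body of 52.3 kb. Members with a peak had longer bodies, with a median of 386 kb, against 50.1 kb in members without. Spearman's rho of body length with the number of peaks was 0.32 over all 34 members and -0.23 over the 22 with a peak. These are correlations across genes, which share 1 library and in places share peaks. By position, 21 of the 57 peaks lay on chromosome 9 and 14 on chromosome 16, which carry 6 and 5 of the members with a peak. These are 36.8% and 24.6% of the members' peaks, against 5.84% and 3.51% of all 2652 peaks, and neighbouring peaks of 1 gene count separately in them. The shares of all peaks take no account of where the members lie, so the gap is no measure of clustering beyond that.

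In strength the members' peaks were close to the list as a whole. The 57 peaks had a median fold of 6.64 (quartiles 4.91 and 9.49), against 6.37 (quartiles 4.91 and 8.84) for all 2652 peaks. Their median pileup was 20 fragments, from 8 to 153, against 19 for all peaks. At least 10-fold enrichment was reached by 13 of the members' peaks (22.8%, 95% exact binomial interval 12.7 to 35.8%), against 18.7% of all peaks. Peaks of this strength were assigned to 8 of the 34 members (23.5%), against 2.79% of protein-coding genes. Those shares were not matched for gene length or for having any peak. Among genes with an assigned peak, 8 of 22 members had one of this strength, against 610 of 2230 protein-coding genes. Several single peaks rest on few fragments: 5 of the members' peaks, at Chl1 with Cntn6, Dscam, Lrrtm1 and Sdk1, had the same 4.91-fold from a pileup of 9 fragments, a pair of values that 94 peaks of the whole list shared.

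**Figure D2:**
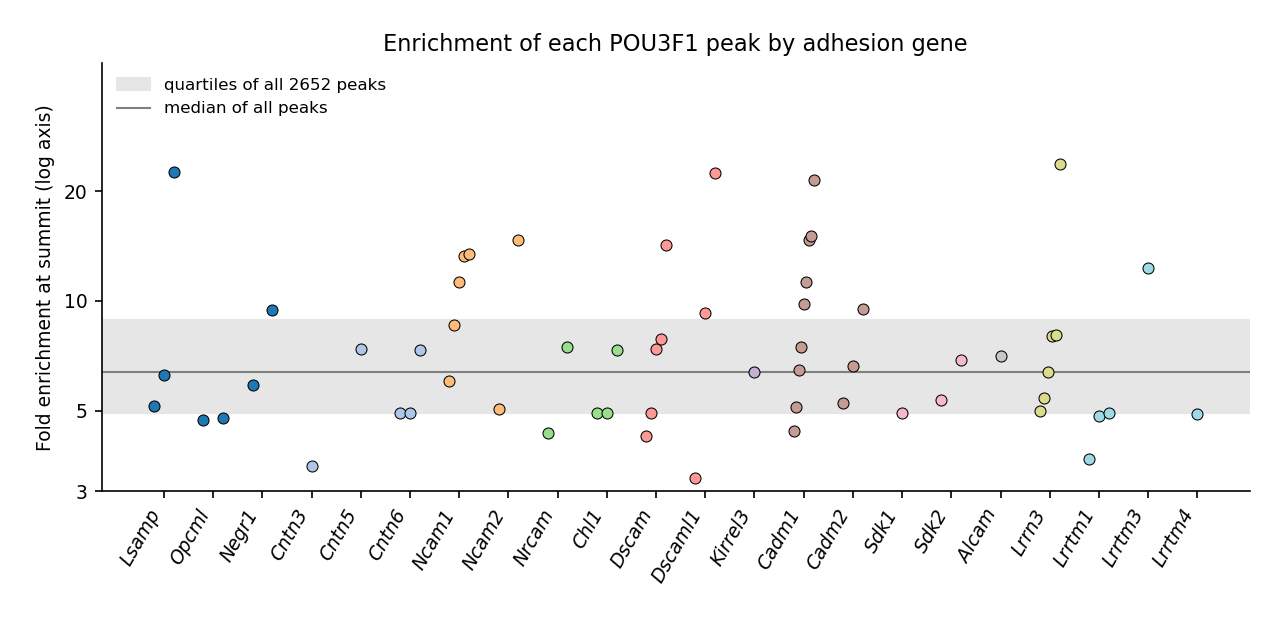
Fold enrichment at the summit (log axis) of every peak of the 22 members with a peak; each point is 1 peak, and colours mark subfamilies. The grey band and line give the quartiles (4.91 and 8.84) and median (6.37) of all 2652 peaks, and peaks above 20-fold stand at Lsamp, Dscaml1, Cadm1 and Lrrn3.

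Most pairs were distant, yet more often within the gene itself than for other genes. The median distance from peak to TSS was 224 kb in the members' pairs, against 161 kb over all 4427 pairs. Of the members' pairs, 40 of 60 lay 50 to 500 kb from the TSS (66.7%, 95% exact binomial interval 53.3 to 78.3%), against 60.7% of all pairs. Only 5 members (14.7%) had a peak within 50 kb, against 3.67% of protein-coding genes, and 1 member (2.94%) had a peak within 5 kb, against 1.40% of protein-coding genes. By the peak midpoint, 34 of the 60 pairs lay in the body of the member (56.7%, 43.2 to 69.4%), against 26.3% of 4306 placed pairs of all genes. Long bodies hold more of their pairs in any case: for genes over 200 kb the shares were 68% of the members' pairs and 60.8% of all pairs. Counted without the assignment, 18 members (52.9%) had a peak in the body, against 3.39% of protein-coding genes, most of which are far shorter. Among genes of 200 to 500 kb, 9 of 11 members had a peak in the body, against 28.8% of all genes. At 500 to 1000 kb the shares were 6 of 7 members and 48.5%, and over 1000 kb 3 of 4 members and 59.3%. Per length, members over 200 kb held 2.52 peaks per Mb of body, against 1.67 per Mb in all genes over 200 kb. By class, the members' rate was 4.95 against 1.68 per Mb at 200 to 500 kb, 1.97 against 1.91 at 500 to 1000 kb, and 1.60 against 1.28 over 1000 kb. The 12 members of up to 200 kb, 0.726 Mb together, had no peak in the body, where all genes of the 3 shorter classes held 0.484 to 1.23 per Mb. At such rates 0.726 Mb is too little sequence for the absence of a peak to mark a shortage.

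**Figure D3:**
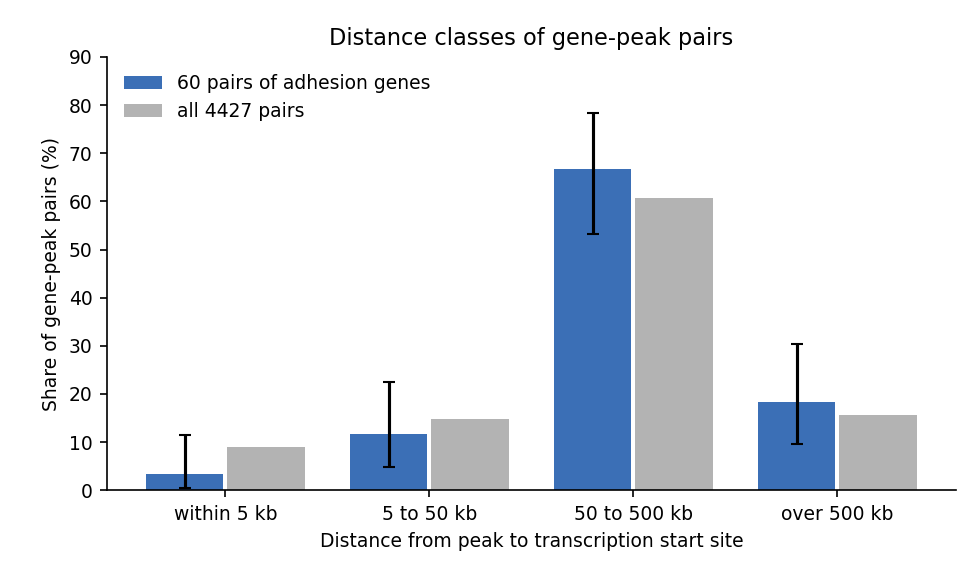
Share of gene-peak pairs (y axis, percent) by distance from the peak to the TSS (x axis) for the 60 pairs of the adhesion genes (blue, with 95% exact binomial intervals for counting error) and all 4427 pairs (grey). The class of 50 to 500 kb holds most pairs in both, with 66.7% and 60.7%, and the grey bars fall within the intervals of the blue ones in every class.

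**Figure D4:**
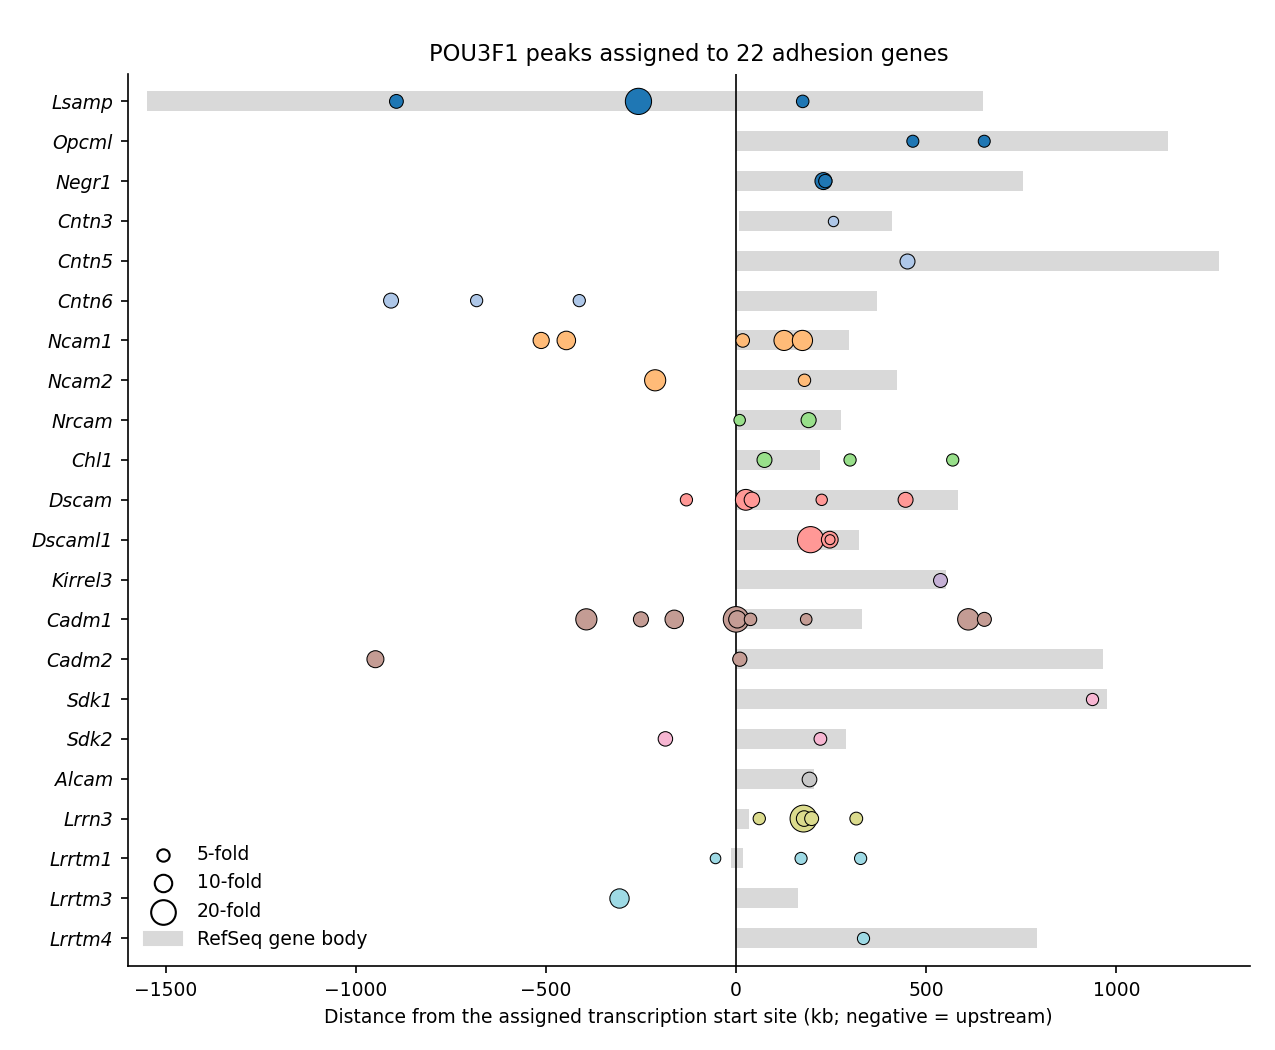
Position of every peak relative to the TSS used in the assignment (x axis, kb, negative upstream) for the 22 members with a peak; circle area grows with fold, and grey bars are RefSeq gene bodies drawn along the direction of transcription. Cadm1 has a peak at its TSS, the peaks of Cntn6 all lie upstream of it, and the 6 peaks of Lrrn3 all lie downstream of its short body.

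The SynCAM genes Cadm1 to Cadm4 encode immunoglobulin adhesion molecules that hold synapses together from both sides. Cadm1 had more peaks than any other member and the only one at a TSS. That peak, at chr9:47529614-47530919, reached 21.5-fold with a pileup of 153, the highest pileup of the 57 peaks; its midpoint lay 55 bp downstream of the TSS. Further into the gene, at 3349 bp, stood a peak of 9.84-fold, and weaker ones followed at 38027 bp (5.12-fold) and 184494 bp (4.41-fold). Upstream of the gene were 3 peaks: at chr9:47136397-47136919 (14.7-fold, 393553 bp upstream), at 250054 bp (7.47-fold) and at 162467 bp (11.3-fold), each in the body of a long non-coding RNA gene, Gm31698 for the first and Gm31816 for the other two. These 3 upstream peaks were also assigned to Gm4791. Beyond the far end of Cadm1 were 2 more, of 15.1-fold at 610749 bp and 6.44-fold at 652926 bp, both also assigned to Nxpe2. Leaving aside these distant peaks, the Cadm1 body alone held 4 peaks in 332 kb. Cadm2, with a body of 966 kb, had a pair of close peaks 9477 and 9951 bp downstream of its TSS (5.24-fold and 6.64-fold) and another 948146 bp upstream (9.49-fold). Cadm3 and Cadm4, with bodies of 36.2 and 22.5 kb, had none.

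The NCAM genes encode the founding immunoglobulin adhesion molecule of neurons and its relative in olfactory and other axons. Ncam1 had 5 peaks. Inside its body lay peaks of 13.4-fold at chr9:49624090-49624475, 13.3-fold at chr9:49672550-49672998 and 6.03-fold at chr9:49780884-49781649, which are 174590, 126098 and 17606 bp downstream of the TSS. The other two lay upstream in sequence without an annotated gene, 446231 bp (11.3-fold) and 512338 bp (8.61-fold) away. Ncam2 had its stronger peak upstream as well, at chr16:80987586-80988469 (14.7-fold, pileup 59, 212670 bp from the TSS), and a weaker one inside the gene (5.05-fold, 179925 bp downstream). No other gene was placed on either Ncam2 peak, while the Ncam1 peaks were also assigned to Ttc12 or Rpl10-ps3. Together the NCAM genes had 7 peaks, with a median of 11.3-fold, the highest median of the subfamilies.

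The DSCAM genes encode very large immunoglobulin molecules by which, in the mouse retina, neurons of a type keep their cell bodies and dendrites apart. Of their 8 peaks, 7 lay inside the gene. Dscaml1 had the strongest of them, of 22.5-fold with a pileup of 51 at chr9:45626046-45626329, 195896 bp into the gene. About 50 kb further lay 2 peaks with midpoints 720 bp apart, of 9.25-fold and 3.26-fold; the second had a q-value of 0.015. Dscam had 5 peaks, led by 14.2-fold at chr16:97144753-97145341, 25705 bp downstream of the TSS. Its other peaks in the body had 7.87-fold at 41687 bp, 4.25-fold at 225220 bp and 7.37-fold at 445759 bp, and a peak of 4.91-fold lay 130464 bp upstream. All 4 of the peaks inside Dscam were also assigned to Pcp4, a neighbouring gene for a small calmodulin-binding protein. Every Dscaml1 peak was also assigned to Cep164.

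The IgLON genes encode small glycolipid-anchored immunoglobulin proteins that pair with each other on neurites. All 7 of their pairs lay inside gene bodies. The strong one was in Lsamp, at chr16:41275836-41276733, with 22.6-fold and a pileup of 45. The deposited distance puts it 256574 bp upstream of the TSS, but that TSS lies 1549 kb into the longest RefSeq gene body, so the peak is inside Lsamp when its longer transcripts are counted. The same holds for a peak of 6.28-fold listed 892975 bp upstream. A peak of 5.14-fold at 175242 bp downstream was assigned to Lsamp and to Gap43, the gene of a growth cone protein. A further peak in the Lsamp body, of 4.91-fold at chr16:40413647-40413843, was assigned to no placed gene; it is 1119113 bp from the TSS used, past the limit of the assignment. Negr1 had 2 peaks within 5044 bp of each other, of 9.44-fold at chr3:156791384-156791652 and 5.89-fold, about 230 kb into the gene. Opcml had 2 weak peaks deep in its body, of 4.76-fold at 464832 bp and 4.72-fold at 652595 bp. Its neighbour Ntm, with a body of 969 kb, had none.

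Contactins are glycolipid-anchored relatives of the L1 family and work with it on the same membranes. Of 6 contactin genes, 3 had a peak, and all were of modest strength. Cntn5, which in mouse serves the dendrites of a class of direction-selective ganglion cells, had a peak of 7.37-fold at chr9:10456250-10456701, 448300 bp into the gene. Its body held 2 more peaks, of 8.84-fold (pileup 76, chr9:9860449-9861022) and 5.16-fold, which were assigned only to Arhgap42 because they lie 1044040 and 1049870 bp from the Cntn5 TSS. The pileup of 76 exceeded that of every assigned contactin peak. Cntn3 had the peak with the highest q-value of the 57, 0.0323 (3.53-fold, pileup 10). Placed there, its only distance gives a TSS 8.49 kb beyond the annotated gene body and 108433 bp from its RefSeq promoter TSS. For the other placed members the offset from the annotated TSS or gene start was at most 3082 bp, so the Cntn3 placement is the least sure. Cntn6 had 3 peaks, all of them more than 400 kb upstream and all shared with Chl1. Cntn1, Cntn2 and Cntn4 had none, although Cntn4 spans 1023 kb.

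The L1 family comprises transmembrane molecules that guide and bundle growing axons. Chl1 and Cntn6 are neighbours on chromosome 6, and their 3 shared peaks were the only ones assigned to 2 members. The peak of 7.35-fold at chr6:103585635-103586089 lay inside Chl1, 74794 bp from its TSS and 907060 bp from that of Cntn6. The other two, of 4.91-fold each, lay between both genes, where no gene is annotated. Nrcam, known for its part in the crossing of ganglion cell axons at the optic chiasm, had a peak of 4.33-fold 9489 bp downstream of its TSS (pileup 10) and a peak of 7.48-fold at chr12:44519585-44519972, 190795 bp downstream (pileup 18). Both lay inside Nrcam and were also assigned to Stxbp6. L1cam, on chromosome X, and Nfasc had no peak.

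The remaining immunoglobulin genes had few peaks. Alcam, for an adhesion molecule of growing ganglion cell axons, had a peak of 7.08-fold near the far end of the gene (191495 bp downstream, also assigned to Cblb). Kirrel3, which helps specific synapses to form, had a peak of 6.39-fold 535891 bp downstream, and its relative Kirrel had none. The sidekick genes encode homophilic proteins that match neurites within layers of the inner retina. Sdk1 had a peak of 4.91-fold 936920 bp into the gene. Sdk2 had a peak of 5.33-fold inside the gene, 221797 bp downstream, and a peak of 6.88-fold 185741 bp upstream, at chr11:114251818-114252100.

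The upstream Sdk2 peak is the only one of the 57 that overlapped a promoter window of the RefSeq table (build GRCm38.p6, from 250 bases before to 50 after a TSS). The window belongs to the long non-coding RNA gene Gm11691, whose TSS at 114251843 falls inside the peak. Its 75 bases under the peak, chr11:114251818-114251892 on the plus strand, are shown because they are the only sequence under a member's peak in the tables used here. Capitals mark a match, on the minus strand, to the octamer variant ATGCNAAT, a pattern chosen after this sequence was read.
Gm11691 promoter under the Sdk2 peak: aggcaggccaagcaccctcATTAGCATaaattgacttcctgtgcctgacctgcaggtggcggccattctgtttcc
ATGCNAAT, searched on both strands, includes the classical octamer ATGCAAAT, to which POU proteins are known to bind. It occurred in 29.1% of the 223 promoter windows that overlapped any POU3F1 peak and in 3.15% of all 32851 windows. The 223 windows include that of Gm11691, from which the variant was read, and were not broken down by gene family. For ATGCAAAT itself the shares were 21.1% of windows under a peak and 1.74% of all windows.

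RefSeq promoter windows were found for 28 of the adhesion genes, 37 windows in all, some of which overlap. The octamer and its variant had 0 matches among them, against 1.74% and 3.15% of all windows, low shares beside a set of 37. The palindrome ATGCAT, part of which is the contact of the POU-specific domain, had a match in 3 member windows and in 5.04% of all windows, and the homeodomain core TAATTA in 1 member window and in 5.29% of all windows. All 4 belong to members without an assigned peak. Ncam1, Dscaml1, Kirrel3 and Lrrn3, which had peaks, have no window, so these few matches show no relation between match and peak. The stretches are shown, 5′ to 3′ along each gene, with every match in capitals. They come from chr6:106118807-106118862 (plus strand), chr1:132707483-132707538 (minus strand), chr9:29412882-29412935 (minus strand) and chr15:92161200-92161255 (plus strand).
Cntn4, TAATTA starting 110 bases before the TSS: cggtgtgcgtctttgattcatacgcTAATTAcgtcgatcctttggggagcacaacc
Nfasc, ATGCAT starting 187 bases before the TSS: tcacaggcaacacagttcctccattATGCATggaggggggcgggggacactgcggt
Ntm, ATGCAT starting 227 bases before the TSS: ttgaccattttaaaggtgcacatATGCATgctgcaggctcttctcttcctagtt
Cntn1, first ATGCAT starting 132 bases before the TSS: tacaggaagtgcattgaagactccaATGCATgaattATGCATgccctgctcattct
A match is a description of letters and not a binding site. Cadm1, the member with a peak at its TSS, has no window in the table.

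The leucine-rich genes had a median body of 40.5 kb, with Lrrtm3 at 162 kb and Lrrtm4 at 791 kb the longest, against a median of 332 kb in the immunoglobulin genes. Of their 11 pairs 1 lay inside the member, in Lrrtm4, against 33 of 49 pairs of the immunoglobulin genes. The other peaks of the leucine-rich genes lay in the bodies of the genes that surround these members. Lrrn3, for a transmembrane protein of neurons, sits inside Immp2l, the gene of a mitochondrial peptidase subunit, and all 6 of its peaks fell in the 932 kb body of Immp2l and were assigned to both genes. They included the strongest of the 57 peaks, of 23.8-fold with a pileup of 96, at chr12:41308648-41309542, 177336 bp downstream of the Lrrn3 TSS. Peaks of 8.03-fold and 8.05-fold flanked it, the 3 midpoints spanning 9497 bp. The other peaks, at 61084, 198765 and 316118 bp, had 4.98-fold, 6.39-fold and 5.40-fold. Lrrn1 and Lrrn2 had none.

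Several LRRTM genes are nested in genes of alpha-catenins, which link cadherins to the cytoskeleton. Lrrtm1 had 3 peaks in the body of Ctnna2, at 53986 bp upstream (3.69-fold), 170949 bp downstream (4.82-fold) and 327517 bp downstream (4.91-fold). Lrrtm3 had 1 peak, of 12.3-fold, in the body of Ctnna3 at chr10:64396475-64397214, 306570 bp upstream. Lrrtm4 had 1 peak of 4.88-fold inside its own body, 333611 bp downstream, and Lrrtm2, the shortest member at 6.02 kb, had none.

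Of the 57 peaks, 34 lay inside a member to which they were assigned and 23 did not. Of these 23, 11 lay in another protein-coding gene, 5 in non-coding genes and 7 outside any annotated gene. Their median fold was 7.47, against 6.33 for the 34 peaks inside members, and 7 of the 23 and 6 of the 34 reached 10-fold. A member was the gene with the nearest assigned TSS in 43 of the 60 pairs (71.7%), against 58.2% of all placed pairs, while 41 of the 57 peaks were also assigned to a gene that is no member.

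Other genes of neural recognition and synaptic adhesion carried peaks as well. In a list of 55 such genes, which includes neurexins, neuroligins, contactin-associated proteins, receptor phosphatases, SLITRK, LRFN and LINGO genes, 17 had an assigned peak (30.9%, 95% exact binomial interval 19.1 to 44.8%), against the 10.2% of all protein-coding genes. This list, too, was chosen with earlier results of these data known. The 55 genes had a median body of 64.1 kb. Of the 20 with a body over 200 kb, 10 had a peak, against the 45.1% of all genes of that length. Of the 35 with a body of up to 200 kb, 7 had a peak, against 8.53% of all genes of that length. The strongest was in Lrrc4c, a netrin-G ligand gene (16.0-fold, 718920 bp downstream). Ptprf, for a receptor phosphatase, followed with 13.8-fold, Igsf21 with 12.3-fold and the neuroligin gene Nlgn1 with 9.44-fold as the strongest of its 11 peaks. The median fold of the peaks of the list was 6.22.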

How the data were processed

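Peaks came from the authors' deposited list in the MACS2 narrow-peak layout, which gives per peak a fold enrichment (a ratio), p-value and q-value (each as −log10), and a score that was not used further. Bowtie2, MACS2 and deepTools and the build mm10 are named in the submitters' processing notes, without versions; the sources used here do not say whether the IgG library served as the peak caller's control. The deposited gene table lists signed peak-to-TSS distances and was made, per the file headers, with GREAT 4.0.4 (5000 bp upstream and 1000 bp downstream, extended up to 1000000 bp).

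Python 3.11.15 with pandas 2.3.3, numpy 2.4.6 and scipy 1.17.1 was used. Each distance was placed on the peak whose midpoint it meets within 1 bp, with the TSS allowed up to 10 kb outside the RefSeq gene body of GRCm38.p6, the same assembly as mm10. This placed 97.3% of 4427 pairs and all 60 of the members. A whole-number summit pileup that gives the deposited −log10 p-value within 0.001 was found for 98.3% of peaks, the 57 of the members included. Placement and pileup recovery were tested on simulated data. Library depth is unknown, and intervals cover counting error only. Every member is named, those with a peak with their strongest peak. The members, the list of related genes and the motifs were chosen with earlier results of these data known. Exons were not used here. The alternatives were stricter q-values or folds, shorter distances, the nearest TSS only, and other counts of overlap and of shared peaks.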

Additional observations from a re-analysis of the deposited data

How the results depend on the processing

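With 1 library there was no replicate to leave out. No paired analysis was possible because the 2 antibodies have 1 library each and no test was run. Of 39 alternatives, 29 left the value within 1.5 times the reported one or, for the median fold, within its 95% order-statistic interval of 5.33 to 7.87. The other 10 all came from a fold of at least 10 or from a limit of 50 kb, which remove most peaks by construction. With a fold of at least 10, 8 members kept a peak in 13 pairs, 6 of them inside the member, 2 members kept one within 50 kb, 3 related genes kept one, and the median fold was 14.7. Within 50 kb of the TSS, 5 members kept a peak in 9 pairs, all 9 inside the member, and 2 related genes kept one. With a q-value under 0.001, 21 members kept a peak, and with the nearest TSS only, 20. Counting every peak in a member's body, assigned or not, an alternative added after the data were seen, gave 37 in place of 34. Summit pileups of 8 to 20 fragments limit single peaks, and without replicates the folds carry no error.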
